A study of Mus musculus with 11 samples.

Results

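The genes described here encode kinesins, the motor proteins that walk along or take apart microtubules. They are the 37 of 37991 genes in an RNA table whose mouse symbol is Kif, a number and at most 1 of the letters a, b or c. The pattern uses names and not values, though it was chosen with earlier results of these data known. The table holds 11 libraries of mRNA, made with a kit that keeps the strand, from primary cultures begun from the frontal cortex of C57BL/6J embryos at E14.5. The NSC group (3 libraries, day 0) is neural stem cells in NeuroCult proliferation medium. The other 3 groups were sampled on day 4 after the proliferation medium had been exchanged in coated flasks. The Astrocyte group (3 libraries) received DMEM to which N-2 supplement (1%) and fetal bovine serum (1%) had been added. The Neuron group (3 libraries) received Neurobasal to which B-27 supplement had been added at 2%. The Oligodendrocyte group (2 libraries) received the same medium as the Neuron group plus the thyroid hormone T3 at 30 ng/mL. The group names therefore state a medium and not a purified cell type, no day 4 culture was kept in proliferation medium, and the change of medium and the passage of 4 days cannot be told apart. The submitters call the replicates biological, and the labels do not say whether they came from different embryos or flasks, so p-values measure the spread between these libraries.

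Kinesins do very different work with a related motor domain. In a dividing cell, one set builds the bipolar spindle, aligns chromosomes and prepares the midzone for cytokinesis. In a cell that has stopped dividing and grows processes, another set carries vesicles, mitochondria and protein complexes along microtubule tracks, and further members work inside cilia. The members were therefore read in the order spindle kinesins (Kif11, Kif20a, Kif23, Kif2c, Kif4), other mitotic kinesins (6 genes), axonal transport kinesins (Kif1a, Kif3c, Kif5a, Kif5c), other transport kinesins (11 genes), cilium and centriole kinesins (6 genes) and the remaining 5.

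Levels are in CPM, a gene's reads divided by a library-wide total, as deposited. Estimated depth was 49.3 to 66.2 M (mega) reads a library, and the lowest estimate, of Neuron replicate 1, is less certain because another step between values described that library nearly as well. Differences between groups are on the scale log2(CPM + 1), which understates changes of low genes, with limma's standard error (SE) and a Benjamini-Hochberg adjusted p over all genes tested. Calls were made where that p was under 0.05. Of the members, 35 passed the filter of at least 1 CPM in at least 2 libraries, as did 13342 genes of the table. Kif6, Kif9, Kif17, Kif19a, Kif26a, Kif26b and Kif27 were under 1 CPM in every NSC library and passed only through day 4 libraries. For these members the filter itself favoured a rise over NSC. Kif12 and Kif2b were at 0 in every library, where 3 reads would have been 0.0453 to 0.0609 CPM.

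Nearly every kinesin gene that was tested moved between day 0 and day 4, and so did most of the transcriptome. Against NSC, 17 members were called higher and 17 lower in Astrocyte cultures, where 48% and 35.6% of all genes tested were called. In Neuron cultures 14 were higher and 17 lower, beside 43.5% and 39.6% of all genes. In Oligodendrocyte cultures 17 were higher and 16 lower, beside 48.1% and 32.2% of all genes. The counts of higher members lay near that background. Counting only changes of at least 2-fold, 11 members rose and 14 fell in Astrocyte, 10 and 12 in Neuron, and 11 and 14 in Oligodendrocyte. Changes of that size were called higher and lower for 21.4% and 12.3% of all genes in Astrocyte, 17.9% and 13.8% in Neuron, and 21.2% and 10.7% in Oligodendrocyte cultures. The all-gene split shifted with the scaling: median-of-ratios scaling gave 42% higher and 42.1% lower in Astrocyte, 41.3% and 42.5% in Neuron, and 40.4% and 40.6% in Oligodendrocyte cultures. Quantile normalization gave 39.4% and 42.4%, 40% and 41.3%, and 37.6% and 41.3%. Median-of-ratios scaling also moved the all-gene median log2 difference from 0.15, 0.06 and 0.19 to -0.01, -0.01 and 0.00. The members stood at 16 higher and 18 lower, 14 and 17, and 17 and 17 under median-of-ratios scaling, and at 15 and 17, 13 and 16, and 16 and 16 under quantile normalization. The 3 comparisons share the NSC libraries, so their similarity is not independent evidence. The median member changed by -0.08, -0.09 and -0.04 (log2; all genes tested 0.15, 0.06 and 0.19), because the family splits by role, as the plot of all 35 members shows.

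**Figure D1:**
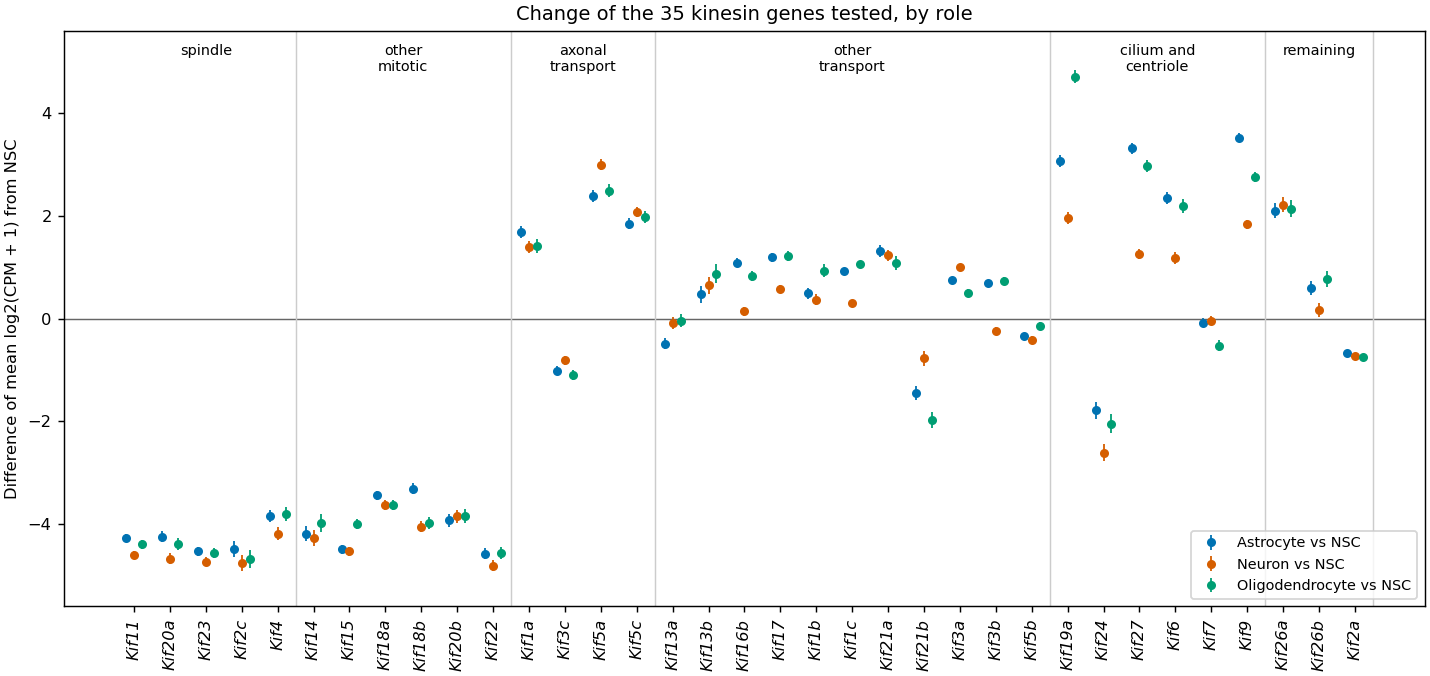
Difference of mean log2(CPM + 1) from NSC for each of the 35 kinesin genes tested (vertical axis, log2 scale), grouped by role, in Astrocyte, Neuron and Oligodendrocyte cultures; points are limma estimates and bars are 1 SE. The 11 mitotic members lie between -4.82 and -3.31 in all 3 media, while the highest point is Kif19a in Oligodendrocyte cultures at 4.72.

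All 5 spindle kinesins fell in every day 4 culture, to between 2.51% and 6.18% of their NSC level. In bulk RNA, fewer dividing cells and less RNA per cell cannot be told apart. Kif11, the motor that slides spindle microtubules apart to make the spindle bipolar, read 250.18, 254.2 and 234.72 CPM in the NSC libraries. It read 10.84, 11.35 and 13.05 CPM in Astrocyte, 9.88, 8.73 and 8.98 CPM in Neuron, and 10.33 and 11.09 CPM in Oligodendrocyte cultures. Every day 4 library was thus far below every NSC library. The level was 21.0-fold lower in Astrocyte (log2 difference -4.28, SE 0.077, adjusted p = 2.14e-14), 26.8-fold lower in Neuron (-4.60) and 23.0-fold lower in Oligodendrocyte cultures (-4.40).

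Kif20a, which takes the chromosomal passenger complex to the spindle midzone, read 90.65, 93.11 and 100.02 CPM in NSC. Day 4 values were 3.74, 3.64 and 4.71 CPM in Astrocyte, 2.82, 2.42 and 2.99 CPM in Neuron, and 3.05 and 4.13 CPM in Oligodendrocyte cultures. Its fall was 23.5-fold, 34.5-fold and 26.3-fold in these media (log2 difference -4.25, -4.68 and -4.39). The gene shares 2315 bases with Cdc23 on the opposite strand, a gene at 54.74 to 102.42 CPM, and whether counting used the strand is not given in the sources used here.

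Kif23, the motor subunit of the centralspindlin complex of cytokinesis, read 76.57, 79.39 and 77.07 CPM in NSC. It read 2.55, 1.98 and 2.7 CPM in Astrocyte, 2.13, 1.86 and 1.87 CPM in Neuron, and 2.23 and 2.43 CPM in Oligodendrocyte cultures, falls of 32.2-fold, 39.8-fold and 33.3-fold. Kif2c does not walk but removes tubulin from microtubule ends at the kinetochore. It went from 77.15, 74.06 and 82.58 CPM in NSC to 2.19, 1.98 and 3.46 CPM in Astrocyte, 1.75, 1.45 and 2.67 CPM in Neuron, and 2.01 and 2.13 CPM in Oligodendrocyte cultures. The Neuron value was 39.8-fold below NSC (log2 difference -4.76, SE 0.156, adjusted p = 4.13e-12). Kif4, a chromosome-bound motor that also works at the midzone with Prc1, kept the largest share of its NSC level. It read 96.6, 101.09 and 99.54 CPM in NSC, 5.24, 5.46 and 7.39 CPM in Astrocyte, 4.02, 4.08 and 5.47 CPM in Neuron, and 5.81 and 6.44 CPM in Oligodendrocyte cultures. It fell by 16.4-fold, 21.9-fold and 16.2-fold, the smallest falls of the 5.

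On mm9 the spindle genes shown by position are Kif11 (chr19:37450893-37496349, + strand), Kif23 (chr9:61765087-61794606, - strand), Kif2c (chr4:116832244-116855244, - strand) and Kif4 (chrX:97821076-97922553, + strand). Kif4 shares 832 bases with Pdzd11 on the opposite strand (27.77 to 46.34 CPM).

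What was left of the spindle kinesins differed little in size between media. Of all genes tested, 40.3% were called higher and 22% lower in Astrocyte than in Neuron cultures. The shares were 43.9% and 23.6% for Oligodendrocyte against Neuron, and 28.7% and 23.5% for Oligodendrocyte against Astrocyte. Against Neuron cultures, Kif11, Kif20a and Kif4 were called higher in Astrocyte cultures by 0.32, 0.42 and 0.35 (log2; adjusted p = 0.00274, 0.00416 and 0.023). In Oligodendrocyte cultures Kif4 alone was called higher than in Neuron cultures, by 0.38 (adjusted p = 0.0239), and none of the 5 was called between Oligodendrocyte and Astrocyte. These between-media calls were small and depended on the processing: quantile normalization ended those of Kif11 and Kif20a (adjusted p = 0.166 and 0.0788). Kif4's Astrocyte call was lost without Astrocyte replicate 3 (adjusted p = 0.115) or without Neuron replicate 1 (0.0834), and its Oligodendrocyte call without Neuron replicate 1 (0.0729) or without Oligodendrocyte replicate 2 (0.148).

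**Figure D2:**
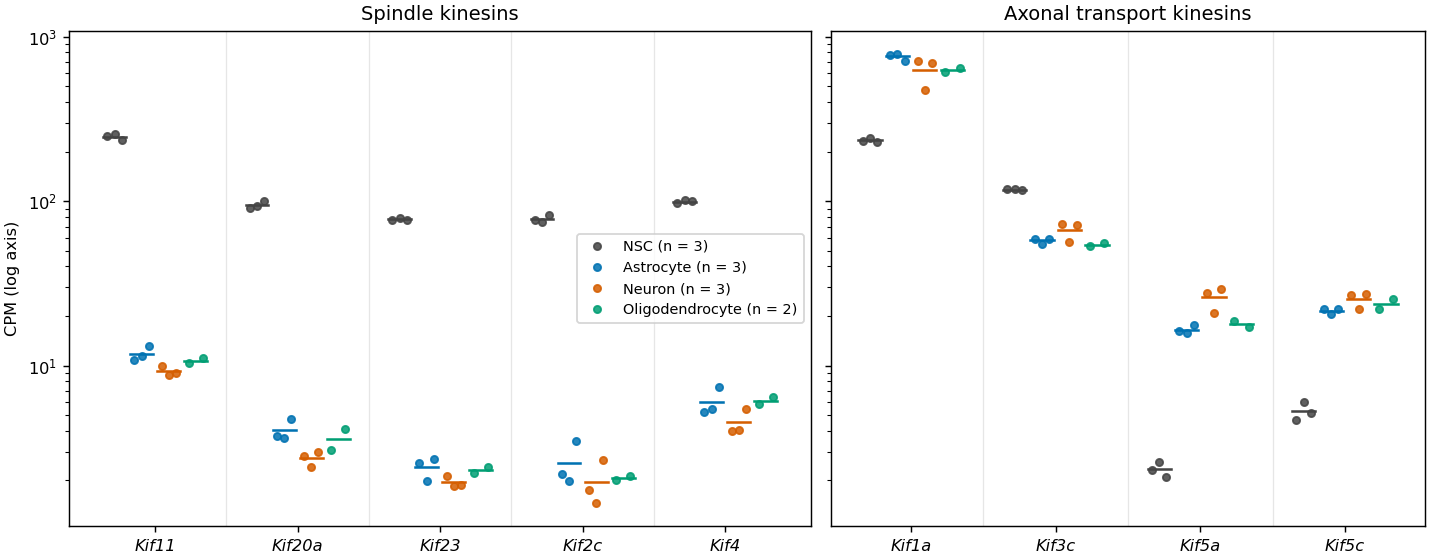
CPM of the 5 spindle kinesins and the 4 axonal transport kinesins on a log axis; each point is 1 library and each bar the mean of its group (NSC, Astrocyte and Neuron n = 3, Oligodendrocyte n = 2). The spindle kinesins drop from 74.06 to 254.2 CPM in NSC to 1.45 to 13.05 CPM on day 4, while Kif1a, Kif5a and Kif5c go up and Kif3c goes down.

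The other 6 mitotic kinesins also fell in all 3 media, and no mitotic member was left above 13.05 CPM on day 4. Kif22, a motor that binds chromosome arms, read 92.58, 96.86 and 106.32 CPM in NSC. It read 2.84, 2.95 and 3.68 CPM in Astrocyte, 2.84, 2.05 and 2.75 CPM in Neuron, and 3.36 and 3.06 CPM in Oligodendrocyte cultures. Its 38.7-fold lower level in Neuron cultures (log2 difference -4.82, SE 0.107, adjusted p = 1.08e-13) was the largest fall of any member on the log2 scale. Kif14, needed for cytokinesis, read 42.14, 44.08 and 40.94 CPM in NSC, then 1.34, 1.35 and 1.43 CPM in Astrocyte, 1.66, 0.62 and 1.58 CPM in Neuron, and 1.93 and 1.56 CPM in Oligodendrocyte cultures. Neuron replicate 2 had the lowest Kif14 of the series. Kif20b, another cytokinesis motor, read 71.13, 72.87 and 63.6 CPM in NSC, then 2.92, 3.85 and 4.07 CPM in Astrocyte, 4.3, 3.08 and 4.26 CPM in Neuron, and 4.36 and 3.42 CPM in Oligodendrocyte cultures. Neither gene was called between any media.

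Of the last 3 mitotic kinesins, Kif18b and Kif15 differed between media and Kif18a was not called between any. Kif18a, which dampens chromosome movement at the metaphase plate, read 71.81, 67.96 and 78.5 CPM in NSC, 5.1, 6.33 and 5.92 CPM in Astrocyte, 5.24, 4.69 and 4.9 CPM in Neuron, and 5.23 and 4.69 CPM in Oligodendrocyte cultures. It fell by 12.6-fold, 14.7-fold and 14.7-fold. Kif18b, which shortens astral microtubules of the spindle, read 49.24, 51.44 and 54.59 CPM in NSC. It read 4.11, 4.47 and 4.34 CPM in Astrocyte cultures but 2.54, 1.6 and 2.43 CPM in Neuron and 2.46 and 2.22 CPM in Oligodendrocyte cultures. All Astrocyte libraries lay above the other day 4 libraries, by 0.75 over Neuron (log2, SE 0.108, adjusted p = 4.66e-05), and Oligodendrocyte was lower than Astrocyte by a log2 difference of -0.67 (SE 0.121, adjusted p = 0.000448). Kif15, which backs up Kif11 in holding the spindle poles apart, read 98.3, 101.53 and 94.83 CPM in NSC. It was highest on day 4 in Oligodendrocyte cultures (5.56 and 4.86 CPM), over 3.19, 3.39 and 3.61 CPM in Astrocyte and 2.96, 3.02 and 3.91 CPM in Neuron cultures. The difference was 0.54 over Neuron (log2, SE 0.104, adjusted p = 0.000474) and 0.50 over Astrocyte (SE 0.104, adjusted p = 0.0013). T3 is the only stated difference between the Oligodendrocyte and Neuron media.

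The promoters of the mitotic members share letters that the transport members mostly lack, and a few are shown for that reason. RefSeq's promoter table (build GRCm38.p6, 250 bases before to 50 after each annotated start) matched 31 of the 37 members with 35 promoters. Searched on both strands were TTTGAA (the cell cycle homology region, CHR), CCAAT (the CCAAT box), and TTGGCGC or TTCCCGC (cores of the E2F site). Below are the 120 bases before the start, 5′ to 3′ on the gene's strand, with motif letters in capitals on whichever strand they were read. Kif11 lies at chr19:37376262-37376381 (+), Kif22 at chr7:127042421-127042540 (-), Kif15 at chr9:122950961-122951080 (+), Kif18b at chr11:102925125-102925244 (-), Kif3c at chr12:3365012-3365131 (+) and Kif5c at chr2:49619166-49619285 (+). The first 4 are mitotic and the last pair axonal.
Kif11: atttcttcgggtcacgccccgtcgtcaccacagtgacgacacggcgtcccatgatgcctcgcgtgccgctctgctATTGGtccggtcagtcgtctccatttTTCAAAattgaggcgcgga
Kif22: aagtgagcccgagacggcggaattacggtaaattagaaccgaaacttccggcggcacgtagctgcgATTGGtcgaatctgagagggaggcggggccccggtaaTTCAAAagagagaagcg
Kif15: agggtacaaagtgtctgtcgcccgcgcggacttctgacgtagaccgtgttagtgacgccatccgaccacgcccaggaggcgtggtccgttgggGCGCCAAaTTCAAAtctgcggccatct
Kif18b: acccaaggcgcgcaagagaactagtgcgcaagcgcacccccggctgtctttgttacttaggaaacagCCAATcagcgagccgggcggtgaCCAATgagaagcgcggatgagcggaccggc
Kif3c: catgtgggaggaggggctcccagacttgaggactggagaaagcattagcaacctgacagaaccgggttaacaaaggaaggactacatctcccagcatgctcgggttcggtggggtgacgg
Kif5c: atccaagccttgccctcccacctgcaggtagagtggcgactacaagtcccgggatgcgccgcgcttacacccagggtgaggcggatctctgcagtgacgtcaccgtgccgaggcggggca

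In these letters the CHR of Kif11 begins 19 bases before the start, that of Kif22 17 bases and that of Kif15 19 bases before it, and the CHR of Kif18b lies just inside the transcript, outside the stretch shown. In Kif15 the E2F core (GCGCCAA, which is TTGGCGC on the other strand) stands 1 base from the CHR. Of the 10 mitotic promoters in the table, 9 held TTTGAA, beside 17.9% of all 32851 promoters of the same length, and the exception was Kif18a, which held an E2F core. Of the 13 axonal and other transport promoters 1 held it (7.69%), an annotated alternative start of Kif1a. CCAAT was in 6 mitotic promoters (37.4% of all promoters) and 4 transport promoters, and CHR with CCAAT in 6 mitotic promoters (6.95% of all) and 0 transport promoters. E2F cores were in 2 mitotic promoters, Kif15 and Kif18a (6.81% of all). Within 25 bases of the start, a window chosen after the positions were seen, CHR was in 7 of 10 mitotic promoters, 0 of 13 transport promoters and 2.65% of all promoters. Among all 35 member promoters, 12 held TTTGAA, 8 held it with CCAAT and 8 held it in that window. Members of other roles were among them. Kif26b held TTTGAA 9 bases before the start and CCAAT 73 bases before it. Kif27 held both at 73 or more bases before the start. Kif27 was called higher in every medium and Kif26b in Astrocyte and Oligodendrocyte cultures. The start positions were not checked on these libraries. The bases after the start matched a transcript of the gene for 28 of the 35 promoters, and did not for 7, among them those of Kif11, Kif23, Kif2c and Kif5c, so distances to the start rest on RefSeq's annotation. A match could lie anywhere in the transcript, so it does not show that transcription starts there. These are matches of letters and were not tested as binding sites. The libraries measure RNA and not factor binding.

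Genes that work with the spindle kinesins fell with them. All 12 spindle partners were called lower in each medium, with median log2 differences of -4.36, -4.54 and -4.36 in Astrocyte, Neuron and Oligodendrocyte cultures. Among all genes tested, 35.6%, 39.6% and 32.2% were called lower, and the median log2 differences were 0.15, 0.06 and 0.19. Plk1, a kinase needed at most steps of mitosis, went from 107.87 to 119.24 CPM in NSC to between 1.41 and 2.6 CPM in the 8 day 4 libraries. Aurkb and Cdca8 belong to the chromosomal passenger complex. Aurkb fell by a log2 difference of -4.58, -5.04 and -4.13, and was higher in Oligodendrocyte (3.19 and 2.98 CPM) than in Neuron cultures (1.24, 0.83 and 1.5 CPM) by 0.91 (log2, adjusted p = 1.45e-05). Cdca8 fell by a log2 difference of -4.81, -5.05 and -4.59. Cenpe, a kinetochore kinesin whose symbol lies outside the Kif pattern, fell by a log2 difference of -4.72, -4.88 and -4.83. All 8 proliferation markers, Mki67 and Top2a among them, were called lower. They kept a median of 5.03%, 2.91% and 4.43% of their NSC level, beside 4.26%, 2.90% and 3.80% for the spindle kinesins. The marker that kept most stood at 16.8%, 16.7% and 16.2%, beside at most 6.09%, 4.57% and 6.18% for a spindle kinesin. The share of cells in division was not measured.

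Of the 4 axonal transport kinesins 3 rose and 1 fell in every medium. Of all genes tested, 48%, 43.5% and 48.1% were called higher in Astrocyte, Neuron and Oligodendrocyte cultures. Those called lower were 35.6%, 39.6% and 32.2%. A count over 4 genes cannot be set apart from these shares. Kif1a, the carrier of synaptic vesicle precursors, was already the most abundant of the 4 per transcript length in NSC. It read 231.62, 240.88 and 227.7 CPM in NSC, 776.77, 786 and 706.55 CPM in Astrocyte, 711.19, 474.16 and 694.97 CPM in Neuron, and 610.64 and 645.59 CPM in Oligodendrocyte cultures. All day 4 libraries lay above NSC, with Neuron replicate 2 the lowest of them. The rise was 3.24-fold in Astrocyte (log2 difference 1.69, SE 0.122, adjusted p = 1.42e-08), 2.69-fold in Neuron and 2.69-fold in Oligodendrocyte cultures, and no pair of media differed at the threshold.

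Kif5a and Kif5c encode kinesin-1 heavy chains typical of neurons, and both rose from low levels. Kif5a read 2.33, 2.6 and 2.11 CPM in NSC, 16.2, 15.81 and 17.57 CPM in Astrocyte, 27.76, 20.9 and 29.26 CPM in Neuron, and 18.55 and 17.1 CPM in Oligodendrocyte cultures. Its Neuron libraries were above all others, 11.1-fold over NSC (log2 difference 3.00, SE 0.111, adjusted p = 1.38e-11). Kif5a was lower in Astrocyte than in Neuron cultures (log2 difference -0.61, SE 0.111, adjusted p = 0.000341) and lower in Oligodendrocyte than in Neuron cultures (-0.51, SE 0.125, adjusted p = 0.00282). Kif5c read 4.68, 6.0 and 5.11 CPM in NSC, 21.92, 20.71 and 21.96 CPM in Astrocyte, 26.91, 21.92 and 27.33 CPM in Neuron, and 22.15 and 25.31 CPM in Oligodendrocyte cultures. It rose 4.09-fold, 4.82-fold and 4.51-fold, and its day 4 groups overlapped or differed by less than the threshold.

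Kif3c, which pairs with Kif3a in a kinesin-2 motor, went the other way. It read 117.7, 117.74 and 116.6 CPM in NSC, 58.88, 55.05 and 58.91 CPM in Astrocyte, 72.37, 56.17 and 71.43 CPM in Neuron, and 53.57 and 55.24 CPM in Oligodendrocyte cultures. That is 49.1%, 56.8% and 46.4% of the NSC level (log2 difference -1.01, -0.82 and -1.10; adjusted p = 5.31e-08, 5.64e-07 and 9.57e-08). Kif3c was called lower in Oligodendrocyte than in Neuron cultures (log2 difference -0.28, adjusted p = 0.0166), a call lost when any of 4 libraries was left out, with adjusted p from 0.0552 (without Oligodendrocyte replicate 2) to 0.093 (without Oligodendrocyte replicate 1). The gene shares 1187 bases with an opposite-strand gene, 1110002L01Rik, at 6.46 to 10.36 CPM.

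On mm9 these genes are Kif1a (chr1:94912033-94998442, - strand), Kif5a (chr10:126662755-126700136, - strand), Kif5c (chr2:49474818-49630298, + strand) and Kif3c (chr12:3365132-3406494, + strand).

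Per length, Kif5b, the heavy chain found in most cell types, dominated the kinesin-1 genes throughout. Divided by exon length from GENCODE M21, which is not the annotation the counts used, the NSC level was 43.4 ± 2.67 CPM per kb (SD, n = 3) for Kif5b, 0.737 ± 0.0943 for Kif5c and 0.336 ± 0.0351 for Kif5a. In Neuron cultures Kif5b stood at 32.7 ± 2.41 CPM per kb, Kif5a at 3.72 ± 0.638 and Kif5c at 3.55 ± 0.421 (SD, n = 3), so that Kif5a and Kif5c no longer differed beyond their spread. Kif5b itself was called lower in Astrocyte and Neuron cultures (log2 difference -0.34 and -0.41) and not called in Oligodendrocyte cultures (-0.14, adjusted p = 0.108). The rise of Kif5a and Kif5c was thus a change in minor kinesin-1 transcripts.

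Neuron markers were read beside the axonal kinesins. Of the 8 of 10 that passed the filter, 5, 5 and 4 were called higher and 3, 1 and 3 lower in Astrocyte, Neuron and Oligodendrocyte cultures. The shares of all genes tested were 48%, 43.5% and 48.1% higher and 35.6%, 39.6% and 32.2% lower. The Oligodendrocyte counts of these markers thus lay near the background. The summed level of the 10 was 936 to 1019 CPM in NSC, 788 to 822 in Astrocyte, 928 to 1212 in Neuron and 824 to 838 in Oligodendrocyte cultures, most of it Map2. Calls of at least 2-fold went both ways in every medium, with 2 markers higher and 1 lower. The lowest log2 differences were -2.32, -1.67 and -1.39, none of them from the genes named singly below. Single genes differed: Dcx, a protein of migrating young neurons, went from 1.33 to 2.02 CPM in NSC to between 85.17 and 177.06 CPM on day 4. Syt1, a synaptic vesicle protein, read 6.0 to 6.71 CPM in NSC, 3.2 to 3.75 in Astrocyte, 8.0 to 12.78 in Neuron and 3.49 to 4.47 in Oligodendrocyte cultures. Rbfox3, a nuclear protein of mature neurons, read 0.51 to 0.88 CPM in NSC and 1.65 to 2.8 CPM in Neuron cultures, and Snap25 went from 1.16 to 1.81 CPM in NSC to between 2.57 and 3.78 CPM on day 4. Neurod6 was at or below 0.34 CPM and Stmn2 at or below 0.98 CPM in every library. The 8 mature oligodendrocyte markers summed to 73.8 to 82.3 CPM in NSC, 446 to 570 in Astrocyte, 2714 to 2896 in Neuron and 2633 to 3019 in Oligodendrocyte cultures. The 8 astrocyte markers summed to 1594 to 1662, 14186 to 15683, 8989 to 9828 and 3386 to 3819 CPM in the same order. All 3 day 4 groups, like NSC, thus held RNA of markers of several neural cell types. Summed markers in bulk RNA do not show which cells were present, and the part of cell types in the kinesin changes was not tested. Microglial markers summed to at most 1.3 CPM and endothelial markers to at most 7.4 CPM. Of 6 mesenchymal markers 5 stayed under 1 CPM in every library, and their sum, at most 42.5 CPM, was nearly all Pdgfrb.

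The 11 other transport kinesins moved by less and differed by medium. In Astrocyte cultures 8 rose and 3 fell, in Neuron cultures 6 rose and 3 fell, and in Oligodendrocyte cultures 8 rose and 1 fell, with medians of 0.69, 0.30 and 0.83 (log2; all genes tested 0.15, 0.06 and 0.19). Beside the shares of all genes called higher (48%, 43.5% and 48.1%) and lower (35.6%, 39.6% and 32.2%), the Neuron counts lay near the background. The kinesin-2 subunits Kif3a and Kif3b, which form the anterograde motor of intraflagellar transport with Kifap3, did not move together. Kif3a rose in all 3 media and most in Neuron cultures (85.48 ± 2.64 CPM in NSC, 172.5 ± 8.41 in Neuron; SD, n = 3; log2 difference 1.00, SE 0.064, adjusted p = 4.17e-09), and it was lower than in Neuron cultures in both Astrocyte (-0.25) and Oligodendrocyte cultures (-0.50). Kif3b read 49.15, 49.52 and 45.61 CPM in NSC, 79.34, 79.61 and 76.06 CPM in Astrocyte, 40.81, 37.09 and 44.04 CPM in Neuron, and 82.2 and 79.02 CPM in Oligodendrocyte cultures. All Neuron libraries were below NSC and all others above it. Kif3b rose by 0.69 and 0.73 (log2) in Astrocyte and Oligodendrocyte cultures and fell in Neuron cultures (log2 difference -0.24, SE 0.067, adjusted p = 0.00454). Compared directly, it was higher than in Neuron cultures by 0.93 in Astrocyte (adjusted p = 6.7e-08) and by 0.97 in Oligodendrocyte cultures (adjusted p = 1.12e-07). Kifap3 rose by 0.62, 0.64 and 0.64, with no difference between media at the threshold.

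Kif1c, Kif16b and Kif17 were called higher in both Astrocyte and Oligodendrocyte than in Neuron cultures. Kif1c, a fast carrier of vesicles, rose by 0.93, 0.30 and 1.06 (log2) in Astrocyte, Neuron and Oligodendrocyte cultures, and the 2 media exceeded Neuron by 0.63 and 0.76. Kif16b, which moves early endosomes, rose by 1.09 and 0.84 in Astrocyte and Oligodendrocyte cultures, while its Neuron libraries (13.88, 13.73 and 13.04 CPM against 11.82 to 12.47 in NSC) did not pass the test (adjusted p = 0.143). Kif17 rose from 0.59 to 0.71 CPM in NSC to between 1.39 and 3.1 CPM on day 4 and exceeded Neuron cultures by 0.62 in Astrocyte and 0.64 in Oligodendrocyte cultures, and it shares 10898 bases with Sh2d5 on the same strand (0.44 to 1.34 CPM). Kif1b, a mitochondrial and vesicle carrier, was highest in Oligodendrocyte cultures at 893.53 and 915.22 CPM, over 430.81 to 515.44 CPM in NSC, and was not called between Astrocyte and Neuron cultures (adjusted p = 0.364).

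Kif21a and Kif21b, close relatives that restrain microtubule growth, went in opposite directions. Kif21a rose by 1.31, 1.23 and 1.09 (log2) in Astrocyte, Neuron and Oligodendrocyte cultures. Kif21b read 190.96, 200.25 and 189.48 CPM in NSC, 74.53, 69.29 and 67.34 CPM in Astrocyte, 133.22, 81.22 and 131.94 CPM in Neuron, and 48.69 and 48.66 CPM in Oligodendrocyte cultures. It fell by a log2 difference of -1.45, -0.78 and -1.97, and the media differed: Oligodendrocyte was lower than Neuron (-1.19, SE 0.157, adjusted p = 1.77e-05) and than Astrocyte (-0.52, SE 0.157, adjusted p = 0.0134). Kif21b and Kif14 are the closest pair of members on the genome, 0.29 Mb apart on chromosome 1 (mm9), and both fell. Against NSC, Kif13a was called lower in Astrocyte cultures (-0.49, adjusted p = 0.0014) and not in Neuron or Oligodendrocyte cultures (adjusted p = 0.495 and 0.765), and Kif13b rose by 0.48, 0.65 and 0.88.

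**Figure D3:**
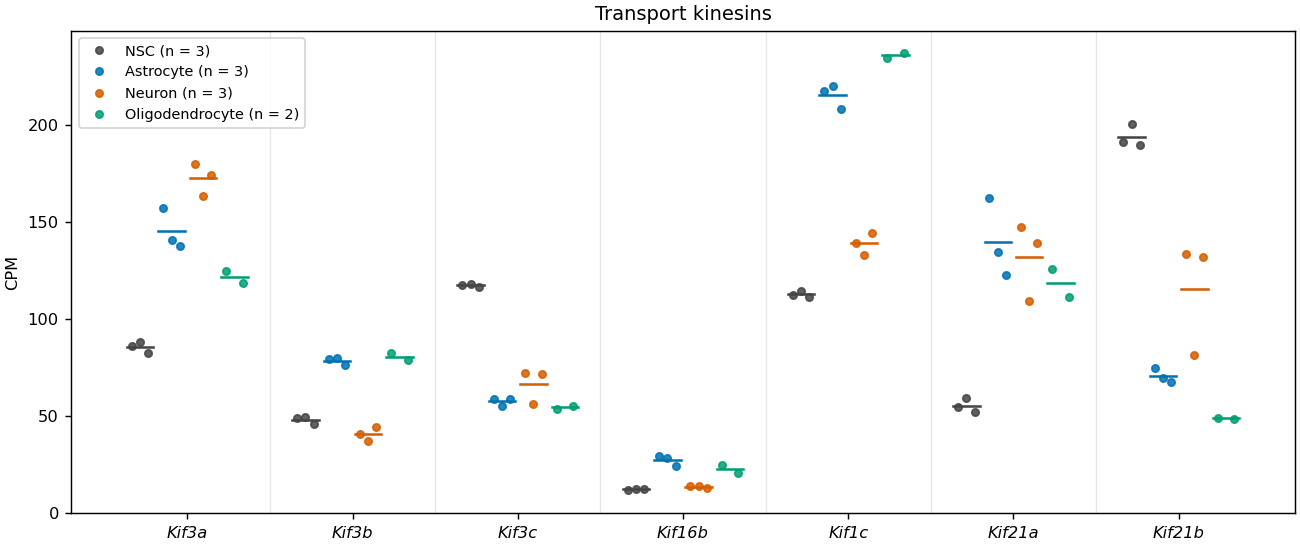
CPM of 7 transport kinesins on a linear axis; each point is 1 library and each bar the mean of its group (NSC, Astrocyte and Neuron n = 3, Oligodendrocyte n = 2). Kif3b is below NSC in the 3 Neuron libraries and above it in the other day 4 libraries, and Kif21b is lowest in the Oligodendrocyte libraries at 48.66 and 48.69 CPM.

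Adaptors and relatives of the transport motors were read as a list of 14 transport partners. Of these, 11 rose and 1 fell in Astrocyte, 8 rose and 3 fell in Neuron, and 12 rose and 1 fell in Oligodendrocyte cultures. Of all genes tested, 48%, 43.5% and 48.1% were called higher and 35.6%, 39.6% and 32.2% lower in the same order, so genes at large were also called higher more often than lower. Map7, a microtubule protein that recruits kinesin-1, was lowest in NSC (3.0 to 3.26 CPM) and highest in Oligodendrocyte cultures (32.01 and 30.06 CPM), and exceeded Neuron cultures there by 0.62 (log2, adjusted p = 7.8e-05). Kifc3, a minus-end directed kinesin, rose by 2.38, 0.79 and 2.41 and was higher than in Neuron cultures by 1.59 in Astrocyte and 1.62 in Oligodendrocyte cultures. Kifc2, another minus-end directed kinesin, rose by 2.18, 2.33 and 1.79, and Klc4, a kinesin light chain, by 1.49, 1.17 and 0.89.

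The largest rises of the family in Astrocyte and Oligodendrocyte cultures were in kinesins of motile cilia. Kif19a, which trims microtubules at cilium tips, read 0.66, 0.47 and 0.56 CPM in NSC, 14.15, 11.32 and 11.26 CPM in Astrocyte, 5.54, 4.08 and 5.84 CPM in Neuron, and 39.71 and 40.35 CPM in Oligodendrocyte cultures. The 4 groups did not overlap. Its Oligodendrocyte level was 71.1-fold over NSC (log2 difference 4.72, SE 0.132, adjusted p = 1.28e-12), above Neuron by 2.75 (SE 0.132, adjusted p = 1.44e-09) and above Astrocyte by 1.64 (SE 0.132, adjusted p = 3.3e-07). It was the only cilium member of the list called higher in Oligodendrocyte than in Astrocyte cultures.

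Kif9 and Kif27 were instead highest in Astrocyte cultures. Kif9, a motor of the ciliary axoneme, read 0.29, 0.37 and 0.37 CPM in NSC, 16.34, 13.88 and 13.25 CPM in Astrocyte, 4.06, 3.72 and 3.63 CPM in Neuron, and 8.54 and 7.72 CPM in Oligodendrocyte cultures. It rose by 3.52, 1.84 and 2.76 (log2; adjusted p = 3.41e-13, 2.75e-10 and 1.61e-11), and Oligodendrocyte was lower than Astrocyte (log2 difference -0.76, SE 0.102, adjusted p = 3.57e-05). Kif27 read 0.2, 0.19 and 0.19 CPM in NSC, 10.89, 11.31 and 10.62 CPM in Astrocyte, 1.56, 2.46 and 1.64 CPM in Neuron, and 8.44 and 8.27 CPM in Oligodendrocyte cultures. Astrocyte exceeded Neuron by 2.06 and Oligodendrocyte exceeded Neuron by 1.71 (log2; SE 0.105 and 0.118). Oligodendrocyte was lower than Astrocyte for Kif27 (log2 difference -0.35, adjusted p = 0.0231), a call lost without either Oligodendrocyte library (adjusted p = 0.0798 and 0.109) or without Astrocyte replicate 2 (0.0635). Kif6 read 0.17, 0.63 and 0.39 CPM in NSC, 5.37, 6.3 and 6.43 CPM in Astrocyte, 1.99, 2.35 and 2.08 CPM in Neuron, and 5.65 and 5.06 CPM in Oligodendrocyte cultures, and rose by 2.34, 1.18 and 2.20. Its Astrocyte and Oligodendrocyte libraries overlapped (adjusted p = 0.375). Each of the 3 genes was lowest of the day 4 groups in Neuron cultures. Like Kif19a, they passed the filter only through day 4 libraries, so their rises over NSC are not independent of the filter.

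Kif24, which sits on the mother centriole and holds back cilium formation, fell while the motile cilium motors rose. It read 21.09, 23.32 and 18.5 CPM in NSC, 5.48, 5.85 and 4.76 CPM in Astrocyte, 2.96, 1.58 and 3.5 CPM in Neuron, and 4.25 and 4.34 CPM in Oligodendrocyte cultures. The log2 differences were -1.79, -2.61 and -2.05 (SE 0.164, 0.164 and 0.184), and Astrocyte exceeded Neuron by 0.83 (adjusted p = 0.000676). The call of Oligodendrocyte over Neuron (0.56, adjusted p = 0.0154) was lost without either Oligodendrocyte library (adjusted p = 0.0622 and 0.074). Kif7, the Hedgehog pathway kinesin at the tip of primary cilia, was not called in Astrocyte or Neuron cultures (adjusted p = 0.407 and 0.697) and was called lower in Oligodendrocyte cultures (12.32 and 10.32 CPM against 16.28 to 17.25 in NSC; log2 difference -0.52, SE 0.1, adjusted p = 0.00028).

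**Figure D4:**
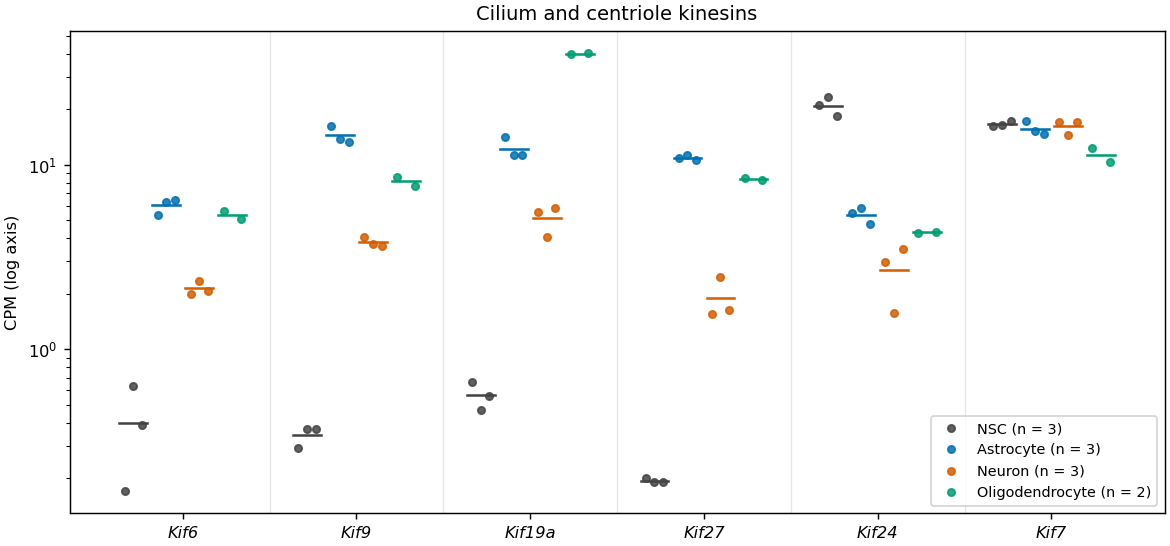
CPM of the 6 cilium and centriole kinesins on a log axis; each point is 1 library and each bar the mean of its group (NSC, Astrocyte and Neuron n = 3, Oligodendrocyte n = 2). Kif19a is highest in the Oligodendrocyte libraries (39.71 and 40.35 CPM), Kif9 and Kif27 are highest in the Astrocyte libraries, and Kif24 is highest in NSC.

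Of the remaining members, Kif26a, an atypical kinesin of neural development, read 0.89, 0.77 and 0.84 CPM in NSC, 6.61, 6.38 and 7.73 CPM in Astrocyte, 8.73, 5.28 and 9.26 CPM in Neuron, and 7.76 and 6.48 CPM in Oligodendrocyte cultures. It rose by 2.11, 2.22 and 2.14 (log2), with overlapping day 4 libraries. Kif26b read 0.1 to 0.32 CPM in NSC, 0.41 to 1.1 CPM in Astrocyte, 0.24 to 0.39 CPM in Neuron, and 1.03 and 1.04 CPM in Oligodendrocyte cultures. It reached 1 CPM in 3 libraries and passed the filter through these. Kif2a, the relative of Kif2c that also trims microtubules in neurons, fell to 62.5%, 60.1% and 59.1% of its NSC level, a small fall beside that of Kif2c.

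Between media, calls were fewer. Against Neuron, 14 members were higher and 4 lower in Astrocyte cultures (40.3% and 22% of all genes tested), and 14 higher and 5 lower in Oligodendrocyte cultures (43.9% and 23.6%). These splits shifted with the scaling. They became 13 and 6 or 11 and 7 for Astrocyte under median-of-ratios scaling or quantile normalization. For Oligodendrocyte they became 12 and 7 under either. All-gene shares moved as well, in the same order of settings, to 32.7% and 29.2% or 30.4% and 32.3% for Astrocyte. For Oligodendrocyte they moved to 34.7% and 31.4% or 31.9% and 34.5%. Without Neuron replicate 2, which had the highest mitochondrial share of the series (8.91% of the CPM total) and low values of Kif1a, Kif13b and Kif21b, the lower count in Astrocyte was 8. Oligodendrocyte against Astrocyte gave 5 higher and 7 lower (28.7% and 23.5% of all genes), and 12 calls in all became 4 without Oligodendrocyte replicate 2, 8 without Oligodendrocyte replicate 1 and 17 without Neuron replicate 2. All-gene shares in that comparison also fell without either Oligodendrocyte library, and rose to 33.3% higher and 26.9% lower without Neuron replicate 2. Without that Neuron library, 25.5% of all genes were lower in Astrocyte than in Neuron cultures. Against NSC, leaving out Neuron replicate 2 left 14 higher and 17 lower in Neuron cultures.

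A single number per library set the spindle kinesins against the axonal ones: the mean log2(CPM + 1) of the first 5 minus that of the other 4. It was 1.98, 1.89 and 2.03 in NSC, -3.64, -3.65 and -3.34 in Astrocyte, -4.17, -3.88 and -4.06 in Neuron, and -3.65 and -3.56 in Oligodendrocyte libraries. The group means were 1.97 ± 0.07 (SD, n = 3), -3.54 ± 0.18 (SD, n = 3), -4.04 ± 0.14 (SD, n = 3) and -3.60 ± 0.06 (SD, n = 2). Spindle kinesins were thus the higher set in every NSC library and the lower set in every day 4 library. Most of the shift came from the spindle mean, at 6.73 to 6.77 in NSC and 2.04 to 2.69 on day 4. The axonal mean was 4.74 to 4.87 in NSC and 5.93 to 6.34 on day 4. The 9 members were chosen with earlier results known, so no test is given.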

How the data were processed

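The authors deposited CPM values in 1 table (37991 genes, 11 libraries, 2 decimals kept) beside gene symbols and mm9 coordinates, per the file headers. The submitters' processing notes name bcl2fastq 1.8.4, TopHat2 2.0.8, HTSeq 0.6.1, edgeR 3.2.4, R 3.0.0, HOMER and build NCBIM37 (mm9), without their settings. The listed genes held 74.95% to 80.25% of the CPM total in each library, so that total includes other reads. Depth (49.3 to 66.2 M reads) was estimated from the step between low values, 0.0151 to 0.0203 CPM a read. Rounding left only 24.0% to 61.5% of low values within 0.1 read of a whole number, so no count test was run.

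Members and lists were chosen with earlier results of these data known. The test was limma 3.58.1 in R 4.3.3 on log2(CPM + 1), for genes that reached 1 CPM in 2 or more libraries, with 1 mean per group over all 11 libraries, trended empirical Bayes (degrees of freedom 7 residual, 5.96 prior), a two-sided test of each of 6 comparisons, Benjamini-Hochberg adjustment within a comparison, and calls at an adjusted p under 0.05. The code was tested on simulated data. Named with every library's value are the 9 contrasted members and the 12 others with the largest range of group means; others shown by library were chosen after their values were seen (Kif3b, Kif21b and single groups of Kif16b, Kif1b and Kif7). Partner lists are shown by their 4 genes of largest range. Alternatives covered the pseudocount, the filter, scaling, the fit and leaving out each library. Near copies Kif22-ps and Kif4-ps were at 0 in all libraries. A replicate number was not used as a block. Coordinates are mm9 except promoters (RefSeq, GRCm38.p6).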

Additional observations from a re-analysis of the deposited data

Results flagged for a closer look

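Kif3b, a kinesin-2 subunit, changed in opposite directions from NSC in different media. It was called lower in Neuron cultures and higher in Astrocyte and Oligodendrocyte cultures. Tested directly, the change in Astrocyte exceeded that in Neuron cultures by 0.93 (log2, SE 0.067, adjusted p = 6.7e-08), with 3 of 3 Astrocyte libraries above all Neuron libraries. The change in Oligodendrocyte exceeded that in Neuron cultures by 0.97 (log2, SE 0.075, adjusted p = 1.12e-07), with 2 of 2 libraries above all Neuron libraries. Groups of 2 or 3 libraries are too small for a check on single outlying libraries.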

How the results depend on the processing

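Of 87 called results of the 21 members named by rule, 80 kept their direction and their side of the threshold under all 21 alternatives and 7 lost the call under at least 1, none with a change of direction. Results not called were not followed. The 7 are Kif11, Kif20a and Kif4 in Astrocyte against Neuron, Kif4, Kif3c and Kif24 in Oligodendrocyte against Neuron, and Kif27 in Oligodendrocyte against Astrocyte. Members called lower in Astrocyte against Neuron numbered 7 under quantile normalization (4 as reported) and 4 to 8 when each library was left out. In Oligodendrocyte against Astrocyte, leaving out a library gave 4 to 17 calls, 2 to 7 higher and 2 to 10 lower. The spindle minus axonal value was 2.13, -3.80, -4.38 and -3.88 in NSC, Astrocyte, Neuron and Oligodendrocyte with a pseudocount of 0.1, and 1.54, -2.88, -3.20 and -2.89 with a pseudocount of 5. Quantile normalization gave 1.79 in NSC and -3.75 in Oligodendrocyte, and scaling to nuclear genes gave -3.68 in Oligodendrocyte. Leaving out a library gave 1.94 to 2.01 in NSC, -3.65 to -3.49 in Astrocyte, -4.11 to -3.97 in Neuron and -3.65 to -3.56 in Oligodendrocyte. The cause was not tested. Where 1 Oligodendrocyte library remained, it was assumed to vary like the other groups. With the replicate number as a block, the counts of higher and lower members were 17 and 17 (Astrocyte), 14 and 17 (Neuron) and 17 and 16 (Oligodendrocyte) against NSC, 16 and 5 in Astrocyte against Neuron, 16 and 5 in Oligodendrocyte against Neuron, and 4 and 7 in Oligodendrocyte against Astrocyte. Same-numbered libraries deviated together with correlations of -0.505 to 0.415 over 15 pairs, and other pairs with -0.536 to 0.541, so the numbers were not taken as a pairing. Depth limits the lowest members. In the NSC libraries Kif26b rests on about 6 to 19 reads and Kif6 on about 10 to 36. Kif27 rests there on about 11 to 12 reads and Kif9 on about 17 to 22. Kif14 in Neuron replicate 2 rests on about 33 reads.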

Other observations

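Because the motile cilium kinesins led the rises, 18 other motile cilium genes and 10 intraflagellar transport genes were listed after those values were seen. Of 15 motile cilium genes tested, 14 rose and 0 fell in Astrocyte, 13 rose and 1 fell in Neuron, and 14 rose and 1 fell in Oligodendrocyte cultures, with medians of 2.91, 0.78 and 2.04 (log2). Of all genes tested, 48%, 43.5% and 48.1% were called higher and 35.6%, 39.6% and 32.2% lower. Foxj1, the transcription factor of motile cilia, read 16.38, 17.92 and 18.92 CPM in NSC, 213.17, 223.97 and 231.01 CPM in Astrocyte, 40.1, 53.11 and 43.98 CPM in Neuron, and 135.32 and 130.93 CPM in Oligodendrocyte cultures. The axonemal dynein Dnah5 was at or below 0.05 CPM in NSC and at 17.13 to 19.58 CPM in Astrocyte cultures. Listed genes under 1 CPM in NSC, Dnah5 and Dnaic2 among them, passed the filter only through day 4 libraries. For such genes the filter itself favoured a rise over NSC. Mcidas, a factor that starts multiciliated cell formation, stayed at or below 0.47 CPM and did not pass the filter. Of the 10 intraflagellar transport genes, 9 rose in Astrocyte, 7 in Neuron and 7 in Oligodendrocyte cultures, and Ift27 fell in Neuron cultures, beside the same shares of all genes, with medians of 0.88, 0.29 and 0.47. In Oligodendrocyte against Astrocyte cultures, 23.5% of all genes tested were called lower and 28.7% higher. Within the motile cilium list, 13 of 15 genes were called lower in Oligodendrocyte than in Astrocyte cultures and 1 higher.

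That 1 gene, Dnaic2, is the upstream neighbour of Kif19a. On mm9 chromosome 11, Dnaic2 (114588722 to 114619203, + strand) ends 7498 bases before Kif19a (114626702 to 114652053, + strand), and Btbd17 (114652531 to 114657259, - strand) lies 477 bases beyond it. Dnaic2, an axonemal dynein chain, read 0.49, 0.28 and 0.32 CPM in NSC, 11.55, 13.75 and 13.84 CPM in Astrocyte, 14.55, 16.11 and 15.79 CPM in Neuron, and 45.92 and 47.63 CPM in Oligodendrocyte cultures. It was higher in Oligodendrocyte than in Astrocyte cultures by 1.77 (log2, SE 0.101, adjusted p = 1.44e-08), beside 1.64 for Kif19a. The group means of Ttyh2, on the far side of Dnaic2, were 18.52, 77.88, 71.96 and 110.4 CPM in NSC, Astrocyte, Neuron and Oligodendrocyte, and those of Btbd17 were 24.1, 44.1, 16.8 and 76.7 CPM. Those of Rpl38, on the other side of Ttyh2, were 183.4, 97.62, 159.4 and 114.2 CPM. These neighbours were looked up after the values of Kif19a were seen, and reads that run between adjoining genes were not examined.

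The symbol pattern leaves out Kifc1, a minus-end directed spindle kinesin, which fell by a log2 difference of -3.38, -3.84 and -3.05. Its near copy Kifc5b read 14.89 to 15.3 CPM in NSC, so reads of the pair may be divided between them.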
